A study of Mus musculus with 3 samples.

Results

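A set of 773 HBO1 ChIP peaks lay in exons and away from transcription start sites (TSSs) in Oct1 deficient mouse embryonic stem cells (ESCs). The peaks were chosen by position alone. Each was on chromosomes 1 to 19, had its nearest edge more than 1000 bp from every annotated TSS, and had its summit, the base of highest ChIP signal, inside an annotated exon. Peaks with summits in a 41-Mb segment of chromosome 3 that starts at 100 Mb were left out. The exonic peaks were 773 of 7269 peaks over 1000 bp from a TSS (10.6%, exact binomial 95% confidence interval 9.93 to 11.4), where 3046 others were intronic and 3450 were intergenic. All HBO1 peaks numbered 13823, of which 13388 were on chromosomes 1 to 19.

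The study performed chromatin immunoprecipitation and sequencing (ChIP-seq) to find where the HBO1 histone acetyltransferase binds in ESCs. All 3 samples were ESCs labelled Oct1 deficient, grown undifferentiated with the MEK inhibitor PD0325901 (1 µM, spelled PD03259010 in the labels), the GSK3 inhibitor CHIR99021 (3 µM) and ascorbic acid, and fixed with 1% formaldehyde. The ESCs had grown on feeder fibroblasts, which the methods describe as depleted 1 passage earlier. The samples comprised 2 HBO1 ChIP samples and 1 input of sheared chromatin without antibody. The antibody of the second ChIP sample is given as HBO2 in its label, although HBO1 stands in the sample's title and in the methods. The ChIP samples were available as 1 peak list, so no value below has a replicate error. No ESC carrying Oct1 was profiled, and no RNA was measured in these samples, so neither an effect of the genotype nor the cell type could be checked here.

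HBO1, also called Kat7, is a MYST-family acetyltransferase that acetylates histone tails. It acts in complexes with Meaf6, an Ing protein and a scaffold of the Jade or Brpf family. The scaffold directs the enzyme towards histone H4 (Jade) or histone H3 (Brpf). HBO1 complexes are best known at the promoters of active genes, where Ing proteins read methylated histone H3, and along transcribed gene bodies, where the scaffolds contact chromatin. Exons differ from the introns and intergenic DNA around them in base composition and in how few transposon copies they hold. Both properties bear on where sequencing reads can be placed.

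The input held 31973678 aligned read ends, of which 31194749 were on chromosomes 1 to 19 and 21915284 in the whole file had a mapping quality of at least 20. Input read ends within 1000 bp around a summit numbered 0 to 1398 for the exonic peaks, with a median of 11, beside a median of 3 over all eligible exonic positions. Eligible positions are those where a peak of median width would meet the same rule. In 15 exonic peaks there was no input read end, and in 80 there were at least 50. The authors' fold enrichment over local background ranged from 1.198 to 20.4 (median 4.39), and the −log10 q of the peak caller from 2.33 to 71.7 (median 6.13), where the whole list began at 2.30. Widths ran from 276 to 1628 bp, with a median of 345 bp.

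The coding summits of the strongest uniquely placed peaks and of pluripotency genes give a view of the DNA under these peaks. The 30 bases around each summit are printed from GRCm38, read 5′ to 3′ on the strand of the gene, with every CpG in capitals. They lie at chr17:45567148-45567177 (Slc35b2, exon 3, plus strand), chr7:13032121-13032150 (Chmp2a, exon 6, minus), chr1:118669468-118669497 (Tfcp2l1, exon 13, plus), chr8:72320901-72320930 (Klf2, exon 3, plus), chr8:43295881-43295910 (Zfp42, exon 5, minus) and chr9:110942350-110942379 (Tdgf1, exon 5, minus).
Slc35b2: ggtcttcactgccctcctactcagagtcta
Chmp2a: agaggccacagcctcagccctggctgatgc
Tfcp2l1: acagcatatacacCGCGtctatCGacaggg
Klf2: catgaagCGacacatgtagcctgggtCGac
Zfp42: acCGccctgaggaagcacatgcttgtccac
Tdgf1: gctggcaCGgccagctccactgtcttcctc
Of the 30 bases, 16 (Slc35b2 and Tfcp2l1) to 20 (Chmp2a and Tdgf1) were G or C, and CpGs were absent from the runs of Slc35b2 and Chmp2a. Within 150 bp of the summit on either side, the window used throughout for sequence measures, the 773 peaks had a median GC content of 56.1%. Of the 773 peaks, 94 had both at least 50% GC and an observed over expected CpG ratio of at least 0.6. The median of that ratio was 0.334 in the peaks and 0.218 over eligible exonic positions. It was 0.283 in intronic peaks (0.158 over eligible intronic positions) and 0.387 in intergenic peaks (0.135 over eligible intergenic positions). The share of eligible positions or of other peaks that met both limits is not given here, so the count of 94 has no background.

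Within genes, the exonic peaks were mainly coding, and so were those expected from GC content. The summit lay in coding sequence in 444 peaks, or 57.4% (53.9 to 61.0), in a 3′ UTR in 207, in an exon of a noncoding transcript in 118 and in a 5′ UTR in 4. A summit that met several of these was placed in the first that applied, in the order coding, 5′ UTR, 3′ UTR, noncoding. The last exon of the transcript held 425 of the 773 summits, an internal exon 314, a single exon 28 and the first exon 6. First exons start at a TSS, so the rule leaves out most of their sequence by construction. These counts are given without the eligible length of each exon place. Coding summits were mostly in internal exons (291 of 444), and 203 of the 207 3′ UTR summits were in the last exon. Exons of more than 1000 bp held 397 of the peaks, and 391 peaks lay wholly within 1 exon. The coding exons had a median length of 353 bp, about the width of a peak, and only 150 of the 444 coding peaks stayed inside their exon, so most also covered intron. The 4 peaks of 5′ UTRs were in Zfp473 (fold enrichment 5.98), Rap2b (5.12), Tmem140 (4.90) and Ypel4 (4.07). Among the noncoding exons, 46 were of retained-intron transcripts and 20 of lincRNAs. The host genes numbered 710, and 7 peaks had a summit in exons of more than 1 gene.

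Exons held more HBO1 peaks per length than introns or intergenic DNA. Coding exons over 1000 bp from a TSS held 19.4 peaks per Mb (exact Poisson 95% interval 17.7 to 21.3), 3′ UTRs 7.23 (6.28 to 8.28) and noncoding exons 4.94 (4.09 to 5.91). Introns held 3.25 (3.14 to 3.37) and intergenic DNA 2.95 (2.85 to 3.05). Over all exons the density was 10.2 per Mb (9.47 to 10.9), and exons were 3.48% of the eligible sequence. Intervals here and below cover counting error only, and neighbouring positions are not independent.

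**Figure D1:**
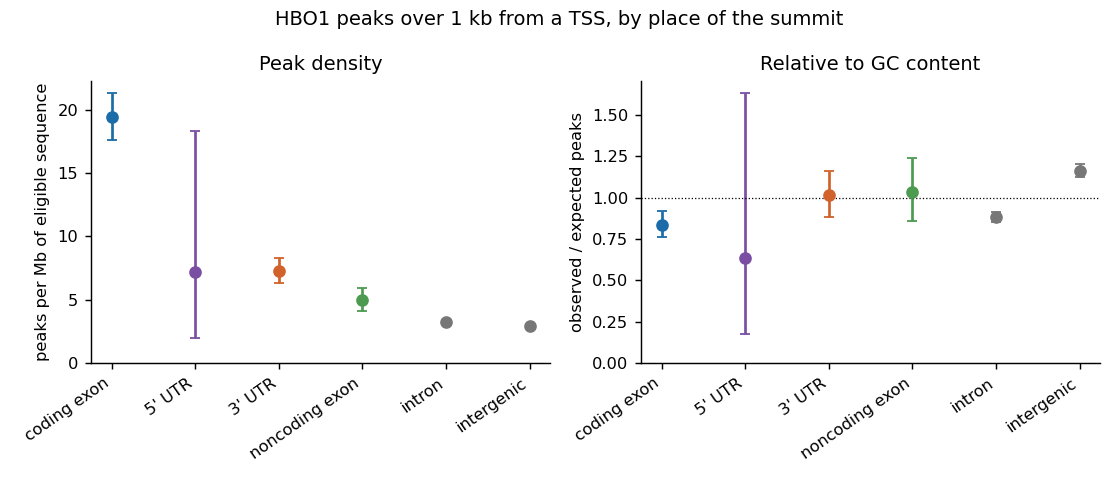
Density of HBO1 peaks over 1 kb from a TSS, by the place of the summit (left, peaks per Mb of eligible sequence), and the number of peaks over the number expected at the same GC content (right, dotted line at 1). Points are single values from 1 peak list and bars are exact Poisson 95% intervals. Coding exons are highest on the left at 19.4 peaks per Mb and stand at 0.838 on the right. For all exons together that ratio was 0.905. It became 1.14, 1.31 and 1.70 under the repeat and input settings and stayed below 1 under the other settings run.

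Base composition moved with this density. Eligible exonic positions had a median GC content of 44.9% and the peaks in them 56.1%, against 55.1% for both intronic and intergenic peaks. Were each peak distributed among positions in its own class of GC content, 2 percentage points wide, 854 exonic peaks would be counted, so the observed number was 0.905 times the expected number (0.842 to 0.971). This ratio was 0.838 (0.762 to 0.919) for coding exons, 1.01 (0.881 to 1.16) for 3′ UTRs and 1.04 (0.858 to 1.24) for noncoding exons. For introns it was 0.884 (0.852 to 0.916), within the interval of the exons, and for intergenic DNA 1.16 (1.12 to 1.202). The direction of the ratio for all exons was not stable. It was 1.14 (1.06 to 1.22) when only windows with under 50% soft-masked (repeat) bases were used, a setting added after the data were seen. It was 1.31 (1.21 to 1.42) with at most 30 input read ends, and 1.70 (1.58 to 1.82) when positions were matched on input read ends in place of GC content. Whether exons held more or fewer peaks than expected thus depended on the windows kept and on the property matched. These settings were run for all exons together and not for each class.

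The comparison also changed sign along the GC scale. At 45 to 50% GC the exons held 1.495 peaks per Mb and the remaining sequence 0.559, a ratio of 2.68. At 50 to 55% the densities were 22.2 and 15.4 (1.44), and at 55 to 60% the order turned, with 54.3 and 58.7 (0.926). The gap widened above this, with 39.4 and 78.3 peaks per Mb at 60 to 65% (0.503) and 85.5 and 268.5 from 65% upward (0.318). Most of the exonic peaks, 367 at 55 to 60% and 264 at 50 to 55%, came from the middle of this scale. The ratio at 45 to 50% rests on 24 exonic peaks and the one from 65% upward on 40. The input and repeat settings that changed the direction of the ratio for all exons were not run by band. Below 45% GC no exonic peak was found, and of the 7269 distal peaks only 17 lay at 40 to 45% and 1 lower.

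**Figure D2:**
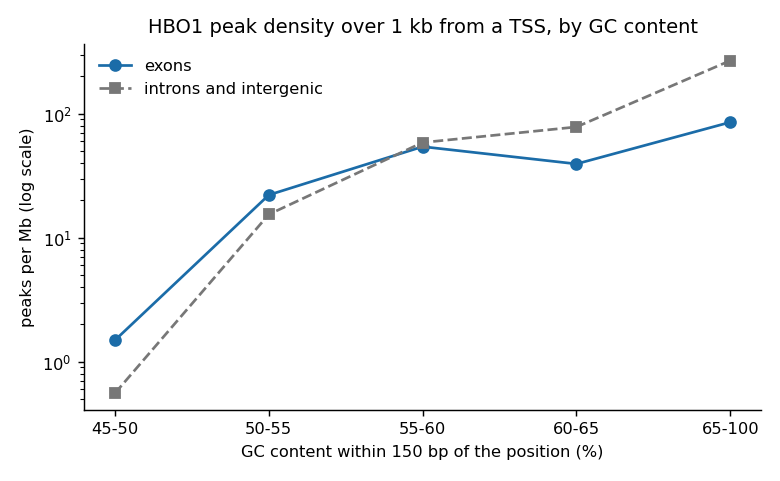
Peaks per Mb (log scale) against the GC content within 150 bp, for exons and for introns with intergenic DNA, over 1 kb from a TSS. From 45 to 55% GC exons are above the other sequence (22.2 against 15.4 peaks per Mb at 50 to 55%), and from 55% upward they are below it, first by little (54.3 against 58.7). Lower GC is not drawn.

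Exonic peaks held less repeat sequence than the other distal peaks. At least 50% of the window around the summit was soft-masked in 28 of the 773 exonic peaks (3.62%), against 28.6% of the intronic and 53.7% of the intergenic peaks. Eligible positions had the same order, at 7.98% in exons, 21.4% in introns and 32.6% in intergenic DNA. Input mapping quality followed the same order, as most read ends around the summit were under 20 in 2.33% of exonic, 17.7% of intronic and 36.2% of intergenic peaks.

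Exonic peaks had a slightly lower fold enrichment than intronic ones, and input read ends moved with that difference. The median fold enrichment was 4.39 (order-statistic interval 4.26 to 4.57) in exons, 4.80 (4.71 to 4.81) in introns and 4.59 (4.53 to 4.66) in intergenic DNA. Coding peaks had the lowest median of the larger classes, 4.15 (3.93 to 4.45), and 3′ UTR peaks had 4.57 (4.22 to 4.88). Noncoding exons had 4.99 (4.43 to 5.43). Where the input held 0 to 4 read ends, the exonic and the intronic median were both 5.55, and at 5 to 9 read ends they were 5.26 and 5.27. At 10 to 19 read ends they were 4.26 and 4.28, and with at least 50 they were 2.30 and 2.39. The gap was widest at 20 to 49 read ends, at 2.94 and 3.29. At 0 to 4 read ends the intergenic median was also 5.55. The exonic and intronic median −log10 q were 6.13 and 6.15 over all peaks, and both 6.13 at 0 to 4 read ends. They were 6.34 and 6.21 at 5 to 9 read ends and 6.34 and 6.04 at 10 to 19. At higher input the order turned, with 5.06 and 6.14 at 20 to 49 and 5.63 and 7.60 with at least 50. Fold enrichment is a ratio over local background, so it and the input bands may not be independent. Equal medians at low input are therefore not a separate test of the difference. Of the 3 larger classes coding peaks had the most input, with a median of 12.5 read ends beside 10 in 3′ UTRs and 8 in noncoding exons. Of the 773 peaks, 352 shared both their fold enrichment and their −log10 q with another exonic peak. The ratio of the exonic to the intronic median was 0.916 (0.887 to 0.953). This interval takes the intronic median as fixed and leaves out its error, so it is too narrow for the ratio. In stricter lists the interval of the ratio, taken in the same way, reached 1. It was 0.975 (0.945 to 1.0) for −log10 q of at least 5 and 0.923 (0.871 to 1.03) for at least 10.

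**Figure D3:**
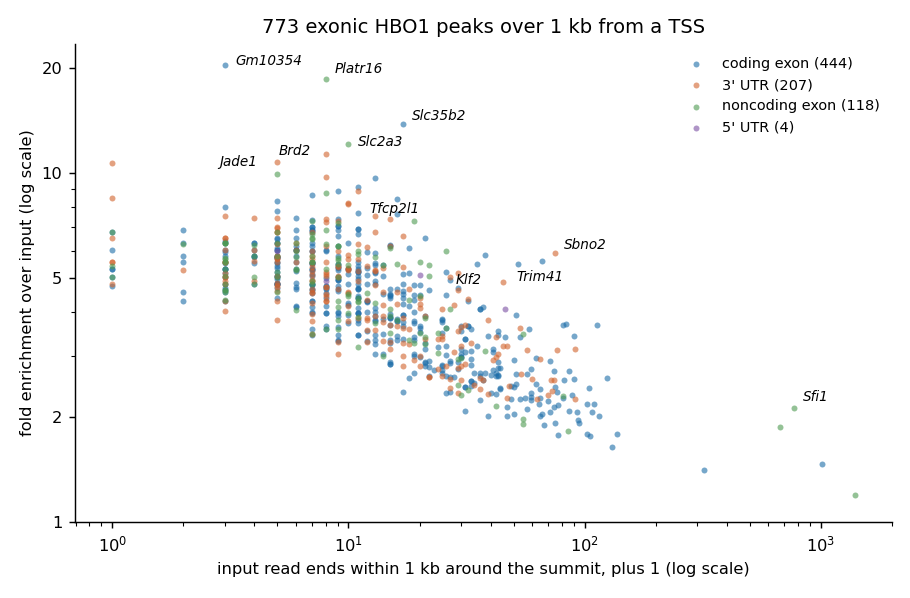
Fold enrichment of each of the 773 exonic peaks against the input read ends within 1 kb around its summit plus 1 (both log scales), coloured by exon class, with single genes named. The peaks above a fold of 10 all have at most 16 input read ends, and those with at least 50 have a median fold of 2.30.

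Fold enrichment exceeded 10 at 7 peaks and 5 at 284. The highest value, 20.4, was in coding exon 5 of Gm10354 (chr5:14974371-14974792), a sequence with a near-identical copy described below. Platr16, a noncoding RNA gene expressed in pluripotent cells, followed with 18.7 in its exon 3 (chr4:145432365-145432945). Its summit was 1 bp from the end of that 99-bp exon, and only 17.0% of the peak was exonic. Slc35b2, which carries the sulfate donor PAPS into the Golgi, had 13.8 and the highest −log10 q of all the exonic peaks, 71.7 (chr17:45566239-45567654). Slc2a3, the neuronal-type glucose transporter, had 12.1 in a retained-intron exon. Brd2, a BET-family reader of acetylated histones, had 11.4 in its 3′ UTR (chr17:34112285-34112728), and Jade1, the HBO1 scaffold subunit, 10.7 in its 3′ UTR (chr3:41614491-41614828). St5 (10.7), Gm49089 (9.94), Rps15a (9.74) and Chmp2a (9.65) completed the highest 10. The peak of Gm49089 was 91.4% soft-masked, and none of the 4 input read ends there reached a mapping quality of 20.

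The 5 highest by −log10 q were Slc35b2, Gm10354, Trim41 (55.1), Platr16 (49.5) and Sbno2 (47.0). The broad Trim41 and Sbno2 peaks had lower folds, 5.60 and 5.90, and more input, 65 and 74 read ends. In 3′ UTRs, Smtnl1 had a fold of 8.87, after Brd2, Jade1, St5 and Rps15a. In noncoding exons, AY702103 (8.76) and the pseudogene Gm6264 (7.29) had the highest folds after Platr16, Slc2a3 and Gm49089.

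Sequence that recurs in the genome carried some of these peaks. The window around the Gm10354 summit matched Speer4e at 297 bases (98.7%), and the Speer4e peak (fold 8.90) had its summit 5 bp from the matching place. The 30 bases around the summit, which were the same in both genes at 30 of 30 positions, lie in Gm10354 at chr5:14974551-14974580 and in Speer4e at chr5:14934087-14934116 (both minus strand).
Gm10354: aatgagttgccaggccaggaggcccctgct
Reads from such copies are hard to assign, so the folds of 20.4 and 8.90 are uncertain. Of the few input read ends at the summits, 2 of 2 at Gm10354 and 6 of 8 at Speer4e had a mapping quality of at least 20. A peak in Sfi1 had a fold of only 2.12 with a −log10 q of 43.8, over 768 input read ends.

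Most host genes had a single exonic peak. Of the 710 genes, 657 had 1 peak, 46 had 2, 5 had 3, and Zfhx2 and Slc2a3 had 4 and 5. At Slc2a3 the folds from 5′ to 3′ were 6.68, 12.1, 6.30, 4.49 and 8.51. The first pair fell in a retained-intron exon of 2936 bp, the next pair in coding sequence of exons 9 and 10, and the fifth in the 3′ UTR. Peaks elsewhere in the same gene included one of fold 12.8, and the whole stretch lay near the 3′ end of a gene span of 73832 bp. Zfhx2, a homeodomain zinc finger gene, had weak peaks at 3.59, 2.40, 2.04 and 3.39. Ypel4 had 3 peaks with summits within its span of 4598 bp, at 4.07, 7.41 and 6.61. Myo10 (3.997 to 5.20), 4930539E08Rik (3.34 to 4.94), Mllt6 (2.35 to 4.14) and Kri1 (2.81 to 4.08) also had 3 each. Zmynd8, a chromatin reader, had 8.43 and 2.76 in adjacent exons 15 and 16. Eno1, a glycolytic enzyme, had 8.32 in coding exon 3 and 5.07 in a retained intron, and Pkd1l2 had 7.07 and 5.93.

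**Figure D4:**
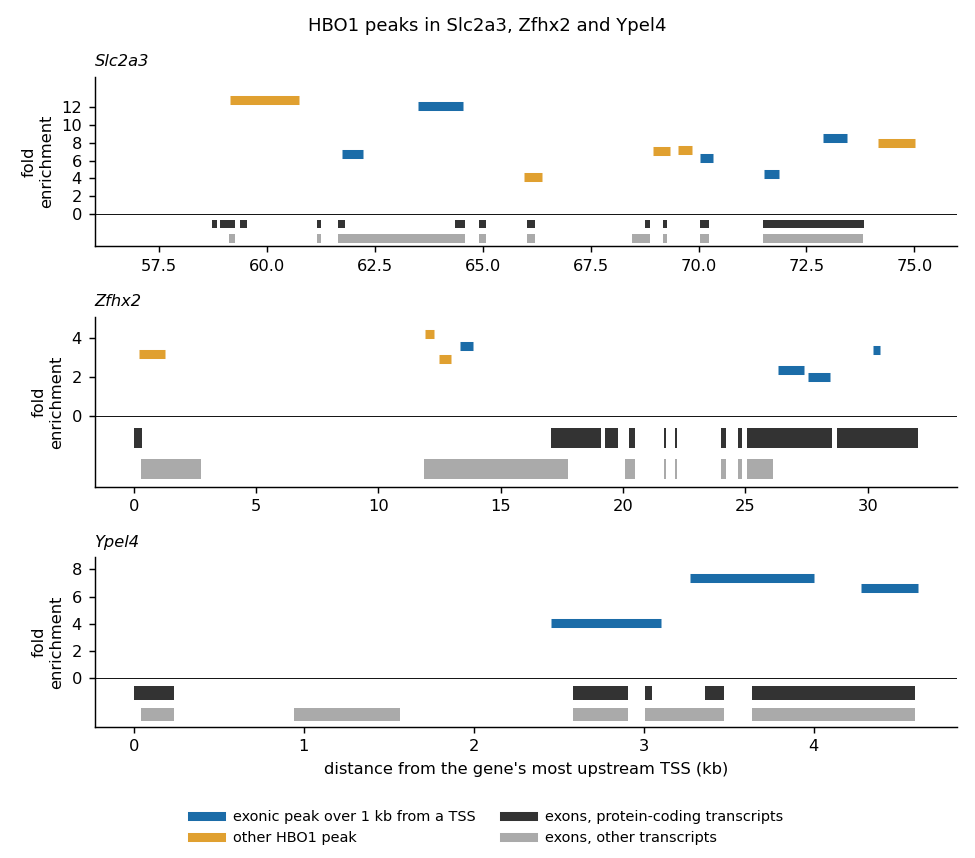
HBO1 peaks at Slc2a3 (3′ part), Zfhx2 and Ypel4, drawn as bars at their fold enrichment against the distance from the most upstream TSS of the gene, above the exons of protein-coding transcripts (black) and of other transcripts (grey). Blue bars are the 5, 4 and 3 exonic peaks over 1 kb from a TSS and orange bars are other HBO1 peaks. The folds of the blue bars span 4.49 to 12.1 at Slc2a3 and 2.04 to 3.59 at Zfhx2.

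Exonic peaks were closer to other HBO1 peaks than intronic and intergenic peaks were. The nearest other summit was at a median of 13527 bp, against 27064 bp for intronic and 42599 bp for intergenic peaks. It was within 5000 bp in 262 exonic peaks (33.9%), and in 20.4% of intronic and 19.2% of intergenic peaks. The median distance to a TSS had the same order, at 4377, 9789.5 and 15750 bp, and its part in these gaps was not tested. Density in exons was 12.9 per Mb at 1000 to 2000 bp from a TSS (185 peaks), 10.8 at 2000 to 5000 bp (243), 11.3 at 5000 to 10000 bp (182) and 7.44 at 10000 to 50000 bp (151). Beyond 50000 bp only 12 peaks were left, at 4.41 per Mb. GC content moved with this, and the ratios to the number expected from it were 0.974, 0.866, 0.976, 0.832 and 0.774 in the same order. The distance bands were not run under the settings that turned the ratio for all exons above 1. The median fold went the other way, from 3.99 in the nearest band to 4.66 at 10000 to 50000 bp and 5.42 beyond. The rule's limit cut through a continuous range. Just inside it were coding exon 11 of Ssc4d at 1003 bp (fold 4.77) and the Brd2 peak at 1004 bp (11.4), and just outside it coding peaks at 998 bp (2.61) and 991 bp (2.04).

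Genes with an exonic peak often had an HBO1 peak at a TSS as well. An exonic distal peak was found in 666 of the 19517 protein-coding genes with eligible exonic sequence, or 3.41%, and a peak within 1000 bp of a TSS in 22.5%. Of the 666 genes, 319 had a TSS peak, or 47.9% (44.0 to 51.8), against 4067 of the other 18851 (21.6%, 21.0 to 22.2). Host genes had more annotated TSSs, a median of 5 against 3. At the same number of TSSs, 25.1% would have had such a peak. The cause of the difference between the groups was not tested. Genes with an intronic distal peak and no exonic one came between, at 580 of 1692 (34.3%, 32.0 to 36.6), where 26.1% would have had one at their number of TSSs. The intervals of the exonic and intronic groups did not overlap. Eligible exonic length also moved with the outcome, with medians of 5026 bp in host genes and 3255 bp in the others, and the share of genes with an exonic peak went from 0.666% in the lowest decile of that length to 6.10% in the highest. Expression of these genes was not measured in these samples.

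Pluripotency factors held exonic peaks more often than the 3.41% of all genes. Of 34 such genes with eligible exons, 7 had one (20.6%, 8.70 to 37.9), and each of the 7 also had a TSS peak. At the share found in all genes of similar eligible exonic length, 1.07 genes would be counted. Tfcp2l1, a factor of the naive state, had the highest fold, 7.71, in coding exon 13 of 15. Klf2 followed with 5.47 over 34 input read ends, in exon 3 of 3, then Zfp42 (Rex1) with 4.70 in the last exon and the Nodal co-receptor gene Tdgf1 with 4.45. Esrrb had 2.87 in its coding exon 7 and 1.98 in a noncoding exon, Mycn 2.44 and Tbx3 2.07. The last 3 genes had input of 42 to 70 read ends and lay among the weaker exonic peaks.

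The HBO1 complex held exonic peaks in 3 of its 9 subunit genes (33.3%, 7.49 to 70.1), and these were scaffold genes: Jade1 at 10.7 in the 3′ UTR, Brpf1 at 4.39 in coding exon 3 and Brd1 (Brpf2) at 3.59 in coding exon 6. The share in all genes of similar exonic length would give 0.441. Other acetyltransferase genes had 2 of 15 (13.3%, 1.66 to 40.5, which includes 3.41%), where 0.679 would be counted in the same way: the coactivators Ep300 (5.29) and Ncoa3 (3.26). All 5 of these genes also had TSS peaks. Both lists are short, and their intervals are wide.

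In the pathways acted on by the inhibitors the counts were near those of all genes. Of 27 ERK pathway genes, 2 had them: Etv5, a transcription factor induced by ERK, at 6.04 in the 3′ UTR and 2.98 in coding exon 11, and the feedback inhibitor Spry2 at 2.72. Of 28 Wnt pathway genes only Tcf7l1, a repressor of Wnt targets, had one (2.74 in the 3′ UTR), and it was without a TSS peak. Both shares, 7.41% (0.910 to 24.3) and 3.57% (0.0904 to 18.3), had intervals that included 3.41%. From the share in all genes of similar exonic length, 0.973 and 1.05 genes would be counted.

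Developmental regulators, Zfp genes, clustered protocadherins and receptor genes were near or below that level. Jarid2 (3.06) was the only one of 30 Polycomb genes, Hoxc13 (2.01) the only one of 38 Hox genes, and Tbx15 (5.05), Tbx6 (2.98) and Tbx3 were 3 of 82 Fox, Sox, Tbx, Pax and Gata genes. Zfp genes had 18 of 384 (4.69%, 2.80 to 7.31), of which Zfp7 (5.996 and 5.18), Zfp473, Zfp532 (5.55), Zfp382 (5.30) and Zfp109 (5.05) had the highest folds. Clustered protocadherins had 0 of 57, which allows a share of up to 6.27%. Olfactory and vomeronasal receptor genes had 2 of 1275 (0.157%, 0.0190 to 0.565), Olfr784 and Olfr1419. From the share in all genes of similar exonic length, 37.6 would be counted.

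Ribosomal protein genes had 5 of 48 (10.4%, 3.47 to 22.7), where 0.709 would be counted from the share in all genes of similar exonic length. These were Rps15a at 9.74, Rpl31 at 7.23, Rps10 at 5.97, Rpl22 at 4.44 and Rpl8 at 3.79, all with TSS peaks. Of 18 clustered histone genes with eligible exons, 2 had them (11.1%, 1.38 to 34.7, which includes 3.41%), where 0.289 would be counted in the same way. These were Hist1h2be (3.92) and Hist1h1d (3.69), with −log10 q of 27.4 and 36.8. Both families have near-identical copies elsewhere. At the 5 ribosomal protein peaks (7 to 25 input read ends) and at Hist1h1d (82) every input read end had a mapping quality of at least 20, as did 44 of 50 at Hist1h2be. The mapping quality of ChIP reads was not analysed here.

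**Figure D5:**
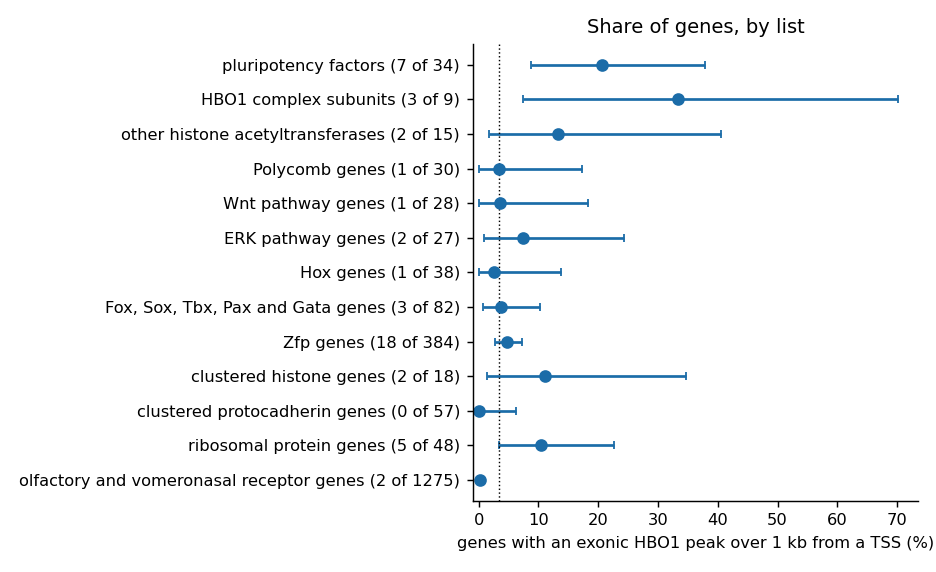
Share of the genes in each list that held an exonic HBO1 peak over 1 kb from a TSS, with exact binomial 95% intervals, and the number of such genes of all with eligible exons. The dotted line marks 3.41%, the share of all protein-coding genes. Pluripotency factors (20.6%) and HBO1 complex subunits (33.3%) lie to its right and receptor genes (0.157%) to its left.

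POU sites were rare under the exonic peaks and also in exonic windows of the same GC content. The octamer ATGCAAAT, the site of Oct1 and Oct4, occurred on either strand of the window around the summit in 4 of 773 peaks (0.517%, 0.141 to 1.32), against 0.788% of intronic and 0.348% of intergenic peaks. It occurred in 1.69% of eligible exonic windows and, at the GC content of the peaks, in 0.435%, which is inside the interval of the exonic peaks. The 4 sites are printed on the strand that reads the octamer, in capitals: chr2:180819497-180819526 (plus) in noncoding Gm14340, chr7:127135360-127135389 (minus) in the 3′ UTR of Spn, chr19:47516170-47516199 (minus) in noncoding Gm19557 and chr2:63980329-63980358 (plus) in coding exon 3 of Fign.
Gm14340: ctctggggaccATGCAAATgggaatagcct
Spn: cccccagaagaATGCAAATgtgatggggac
Gm19557: cagtgtggaacATGCAAATcgcaaggatgc
Fign: ctgtaggtagaATGCAAATatgagccgttg
Their folds were 5.05, 4.89, 3.58 and 3.31. The MORE, a palindromic POU dimer site searched as ATGCATATGCAT with at most 1 mismatch, was found in 0 of 773 peaks, which allows up to 0.476%. It was in 2 intronic and 0 intergenic peaks, and in 0.0367% of exonic windows at the same GC content. At that share fewer than 1 of the 773 peaks would hold it.

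The YY1 core was less frequent in exonic than in other distal peaks, and most peaks of each class lacked it. AAGATGGC, the core bound by YY1, was in 25 exonic peaks (3.23%, 2.10 to 4.74), in 10.8% (9.75 to 11.99) of intronic and in 17.9% (16.6 to 19.2) of intergenic peaks, and in 2.17% of exonic windows at the GC content of the exonic peaks, which is inside the interval of the exonic peaks. Over all eligible windows the YY1 core was in 2.69%. A share at matched GC content is given for exonic windows only, and not for intronic or intergenic ones. The coding peaks of highest fold with this core were in Fam124b (7.77, chr1:80200196-80200225), Prcc (6.62, chr3:87869678-87869707) and Gart (5.33, chr16:91634031-91634060), all read on the minus strand.
Fam124b: cgttcttagagAAGATGGCtttgagaagct
Prcc: cccttgagtttAAGATGGCggcagggtcaa
Gart: cactgctcttaAAGATGGCaaagtagtgac
The ETS core CCGGAAG was in 4.27% (2.96 to 5.94) of exonic and 9.25% (8.30 to 10.3) of intergenic peaks, and the 6.17% (5.34 to 7.09) of intronic peaks overlapped the exonic interval. It was in 3.99% of exonic windows at the GC content of the exonic peaks, inside their interval, and in 0.783% of all eligible windows. The masked share of the groups has the same order as the YY1 share, and its part in the motif shares was not tested.

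Sites of the other factors differed little from composition. The SOX core CATTGT was in 93 exonic peaks (12.03%, 9.82 to 14.5), above the 8.08% of intronic and 7.48% of intergenic peaks but close to 10.7% of exonic windows at the same GC content. It was in 18.5% of all eligible windows. The CTCF core AGGGGGC was in 6.99% (8.40% at the same GC, 2.24% of all windows), the ESRRB core AAGGTCA in 5.43% (5.66% and 5.64%), the KLF site GGGTGTGG in 3.36% (3.95% and 1.79%) and the GC box GGGGCGGG in 2.20% (3.02% and 0.607%). In all 5 the interval of the exonic peaks included the share at the same GC content. The KLF site and the GC box share bases with each other only in part, and a window may hold several sites. A match is a string of letters and not a bound site.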

How the data were processed

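HBO1 ChIP-seq of 2 ChIP samples and 1 input was deposited as 1 peak list and 1 list of aligned input read ends. Per the labels, the authors aligned reads to mm10 with Novoalign 4.03.01 and called peaks with MACS2; how the ChIP samples were combined, and the treatment of duplicate and multimapped reads, are not given in the sources used here. In the deposited list the fold enrichment is the authors' ratio over local background, −log10 q is the authors' significance value, and the peak score was not used. The mapping quality score of each deposited input read end comes from the authors' aligner.

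Peaks were assigned to exons of all GENCODE vM21 transcripts and to GRCm38 sequence in Python (3.11.15) using pandas (2.3.3), SciPy (1.17.1) and NumPy (2.4.6), and plotted with matplotlib (3.10.9). GC, masking and motifs were read within 150 bp of summits, and input read ends over 1000 bp. Eligible positions were sampled every 100 bp with the median peak width of 367 bp, outside the left-out part of chromosome 3. Expected numbers used GC classes of 2 percentage points. The calculation was checked on simulated peaks placed by GC content and exon alone. That check could not show how input or repeats affect the ratio, since neither was simulated. Shares have exact binomial, counts exact Poisson and medians order-statistic 95% intervals. These cover counting error only. Intervals for a ratio or difference of medians take the intronic median as fixed and leave out its error. No p-value was computed, since there is 1 peak list.

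Named genes were those of the 10 highest folds, the 5 highest −log10 q, the 5 highest folds per exon class, the genes with most peaks, the listed genes with a peak (at most 5 per list) and the peaks on either side of the 1000-bp limit. Mycn was named beyond the limit of 5 per list, so that every pluripotency factor with a peak is given. The genes with an octamer were named for that site. Sfi1 and the genes shown for YY1 were named after their values were seen. Some genes that the rule names are not reported here. The peaks and gene lists were chosen with earlier results of these data known. No column of another sample was left unused (0). In all, 13 alternatives were run.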

Additional observations from a re-analysis of the deposited data

How the results depend on the processing

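No paired analysis was possible because both ChIP samples are held as 1 peak list. For the same reason no sample could be left out. The observed over expected number of exonic peaks (0.905) was the value that changed direction, to 1.31 with at most 30 input read ends, 1.70 with input classes in place of GC and 1.14 with under 50% masked bases (the last added after the data were seen). Peaks with −log10 q from 10 upward gave 0.765. Stricter lists held 505 peaks (−log10 q of at least 5) and 122 (at least 10). In these the gene share fell from 3.41% to 2.26% and 0.564%. The exonic over intronic median fold went from 0.916 to 0.975 (0.945 to 1.0) and 0.923 (0.871 to 1.03). At the second limit the exonic share was 9.52% and the coding share 50.0%. The GC difference from intronic peaks was 1.33 percentage points there, against 0.997. A TSS limit of 500 bp gave an exonic share of 12.2% and a gene share of 3.86%, and one of 2000 bp gave 8.79% and 2.95%. With basic transcripts the coding share was 66.3% and the gene share 3.75%. With protein-coding transcripts they were 70.9% and 3.75%, the exonic share 9.81% and the GC difference 1.33. At most 30 input read ends gave a gene share of 2.76%. The causes were not tested, beyond the change in peaks or transcripts that these settings make by construction. Keeping the chromosome 3 segment, the middle of the peak in place of the summit, GC classes of 5 points and GC within 500 bp of the summit moved no share, ratio or difference by more than its interval. The number of peaks was 824 with that segment kept and 754 by the middle of the peak. Input depth, a median of 11 read ends per summit, limits the fold of single peaks.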

Other observations

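Exonic peaks were unevenly spread over chromosomes. Per Mb of eligible exonic sequence, chromosome 17 held 16.2 (exact Poisson 95% interval 12.2 to 21.1; 55 peaks), chromosome 15 held 14.99 (10.9 to 20.1) and chromosome 11 held 14.2 (10.96 to 18.02), while chromosome 13 held 5.66 (3.46 to 8.74) and chromosome 3, without its left-out part, also 5.66 (3.30 to 9.07). Eligible exons of chromosomes 11 and 15 had a median GC content of 48.2% and 46.8%, and those of chromosomes 3 and 13 of 42.5% and 42.9%. Chromosome 17 was at 45.8%.

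The number of coding peaks relative to that expected from GC content varied with exon length. Coding exons of up to 200 bp held 148 peaks, 0.831 times (0.702 to 0.976) the number expected were the 444 coding peaks spread over coding positions by GC class, and those of over 200 and up to 1000 bp also held 148, at 1.19 times (1.01 to 1.40). In longer exons the ratios were 1.11 (0.902 to 1.35) up to 3000 bp and 0.935 (0.692 to 1.24) beyond. In 3′ UTR exons, with the 207 peaks there spread in the same way, the ratios for the same 3 ranges over 200 bp were 1.24, 1.03 and 0.875, each with an interval that included 1. This split was not run under the settings that turned the ratio for all exons above 1.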
